A study of Papio hamadryas with 11 samples.

Results

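The apolipoproteins are the protein part of the lipoproteins that carry cholesterol and triglyceride in plasma, and the liver is their main source together with the gut and, before birth, the yolk sac. APOB forms the scaffold of very low density and low density lipoproteins, APOA1 and APOA2 form the body of high density lipoproteins, and the smaller APOC proteins and APOE move between particles and set how fast lipases and receptors clear them. In humans APOE, APOC1 and APOC2 lie in one gene cluster, and APOA1, APOC3, APOA4 and APOA5 in another.

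Transcripts of 10 apolipoprotein genes (APOB, APOA1, APOA2, APOA4, APOA5, APOC1, APOC2, APOC3, APOE and APOM) were followed on human expression BeadChips hybridised with liver RNA of 11 baboon fetuses (Papio hamadryas). The genes were chosen by symbol, and every probe that the platform annotation gives to one of those symbols alone was taken, which came to 10 of 48803 probes, 1 for each gene, among 18852 genes with such a probe. A probe was to be reported where its detection p was under 0.05 on 5 or more arrays. All 10 passed, as did 11475 probes of the whole table. No member lay near that limit, since each was detected on all 11 arrays, and the dimmest, APOA4, had detection p-values of 0.0040 to 0.022. The probes are ILMN_1664024 for APOB, ILMN_1690884 for APOA1, ILMN_1688543 for APOA2, ILMN_1675706 for APOA4, ILMN_1754055 for APOA5, ILMN_1789007 for APOC1, ILMN_1802923 for APOC2, ILMN_1722070 for APOC3, ILMN_1740938 for APOE and ILMN_1731941 for APOM.

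All fetuses were near term, at 165 days or 0.9 of gestation. The 6 control fetuses (CON1 to CON6) came from control mothers and the 5 others (MO1 to MO5) from obese mothers, and the labels name no other treatment, strain or allele. The females were CON1 to CON3 and MO1 to MO3, and the males CON4 to CON6 with MO4 and MO5. The array names place CON1 to CON4 on 1 slide, called slide 1 here, and CON5, CON6 and all maternal obese arrays on another, slide 2. Nothing in the labels ties arrays to each other as pairs, and 1 array stands for 1 fetus.

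Between 10131 and 13065 probes were detected per array. Precision is limited by how few arrays there are. Of 8 hepatocyte markers 7 passed detection (ALB, AFP, TTR, SERPINA1, FGB, FGA and AHSG, each on all arrays), and TF did not. Macrophage markers were detected for 9 of 9 genes, and 0 of 4 enterocyte markers (FABP2, VIL1, CDX2 and SI) passed. The samples are whole tissue, so fewer cells of a type and less RNA per cell cannot be told apart. Median intensity over all probes was 62.0 to 65.6 on slide 1 and 69.7 to 80.3 on slide 2, and slide 1 held only controls, so the comparisons are also given with slide as a covariate.

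Intensities are given first as the authors deposited them, on a linear scale without background correction. Levels and differences are log2 values after background correction and quantile normalization, SD is the spread between arrays, SE is limma's moderated standard error, and adjusted p-values are Benjamini-Hochberg values of limma's test over all 11475 probes. Dim and bright describe the signal of a probe. Levels of different probes were not read as amounts of transcript relative to each other, because the probes were made for human sequence.

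APOB, the structural protein that a very low density lipoprotein is built around, read 7390 to 11319 in controls (median 8134) and 8331 to 10998 in maternal obese livers (median 8871). The normalized level was 13.05 ± 0.12 (SD, n = 6) against 13.20 ± 0.14 (SD, n = 5), and the groups overlapped. APOA1, the main protein of high density lipoprotein and activator of the cholesterol esterifying enzyme LCAT, read 13823 to 16185 in controls and 12715 to 16612 in maternal obese livers. Its levels were 13.89 ± 0.15 (SD, n = 6) and 13.85 ± 0.20 (SD, n = 5). In MO2 APOA1 stood at 13.50, below the other 4 maternal obese arrays at 13.86 to 14.00. By normalized level MO2 was also the lowest maternal obese array for APOB, APOA2, APOA4, APOC1, APOC3, APOE and APOM, though not for APOA5 and APOC2. In MO2 stellate cell and matrix markers summed to 61364, where no other array passed 16367, and the part of this in the apolipoprotein values was not tested.

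APOA2, the second protein of high density lipoprotein, varied more. On slide 1 it read 13755 in CON1, 17560 in CON2, 18001 in CON3 and 13633 in CON4, and on slide 2 it read 5803 in CON5 and 11128 in CON6. The maternal obese arrays read 11684 (MO1), 9112 (MO2), 13592 (MO3), 11463 (MO4) and 13465 (MO5). The 2 slide 2 controls were thus lower than all 4 slide 1 controls, and by intensity 4 of the 5 maternal obese arrays lay between the 2 sets. By normalized level MO5 (13.80) lay above the slide 1 control CON4 (13.77).

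Among the regulators, APOA4, which in humans comes mainly from the intestine, was dim, at 107 to 225 in controls and 114 to 126 in maternal obese livers. CON6 was the high array, and the next highest by intensity was CON5 at 138. By normalized level CON2 (6.36) and CON3 (6.22) also lay above CON5 (6.21). APOA5, which promotes triglyceride hydrolysis by lipoprotein lipase, read 151 to 340 in controls and 158 to 224 in maternal obese livers. Both were detected on every array but lay close to background, so background correction weighs more on them than on the bright members.

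APOC1, an inhibitor of cholesteryl ester transfer and of particle uptake, had the widest spread. Its intensities on slide 1 were 1645 in CON1, 920 in CON2, 2799 in CON3 and 844 in CON4, and on slide 2 468 in CON5 and 509 in CON6. In maternal obese livers it read 664 (MO1), 466 (MO2), 1307 (MO3), 513 (MO4) and 446 (MO5). APOC1 was high in the 3 control females and, within the maternal obese group, in the female MO3.

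APOC2, the cofactor that lipoprotein lipase requires, followed a like order. It read 348 in CON1, 361 in CON2, 640 in CON3 and 245 in CON4, against 175 in CON5 and 201 in CON6. The maternal obese arrays read 265 (MO1), 188 (MO2), 301 (MO3), 152 (MO4) and 240 (MO5). For APOC2 the 3 control females were above all other arrays. On slide 2 it lay close to background, with detection p-values of 0.0079 in CON5 and CON6 and 0.0092 in MO4.

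APOC3, which slows lipolysis and remnant clearance, was among the brightest probes, at 14001 to 26394 in controls and 19235 to 23792 in maternal obese livers. CON4 was the low array, and by normalized level it was the lowest slide 1 control for every member. APOE, the ligand by which remnants bind receptors of the LDL receptor family, read 14533 to 21446 in controls and 15230 to 18638 in maternal obese livers. APOM, which carries sphingosine 1-phosphate on high density lipoprotein, read 6519 to 11997 and 5942 to 9330. At its brightest, APOC3 reached 85.7% of the highest intensity on its array and APOE 69.0%, and no saturation flags were used here.

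**Figure D1:**
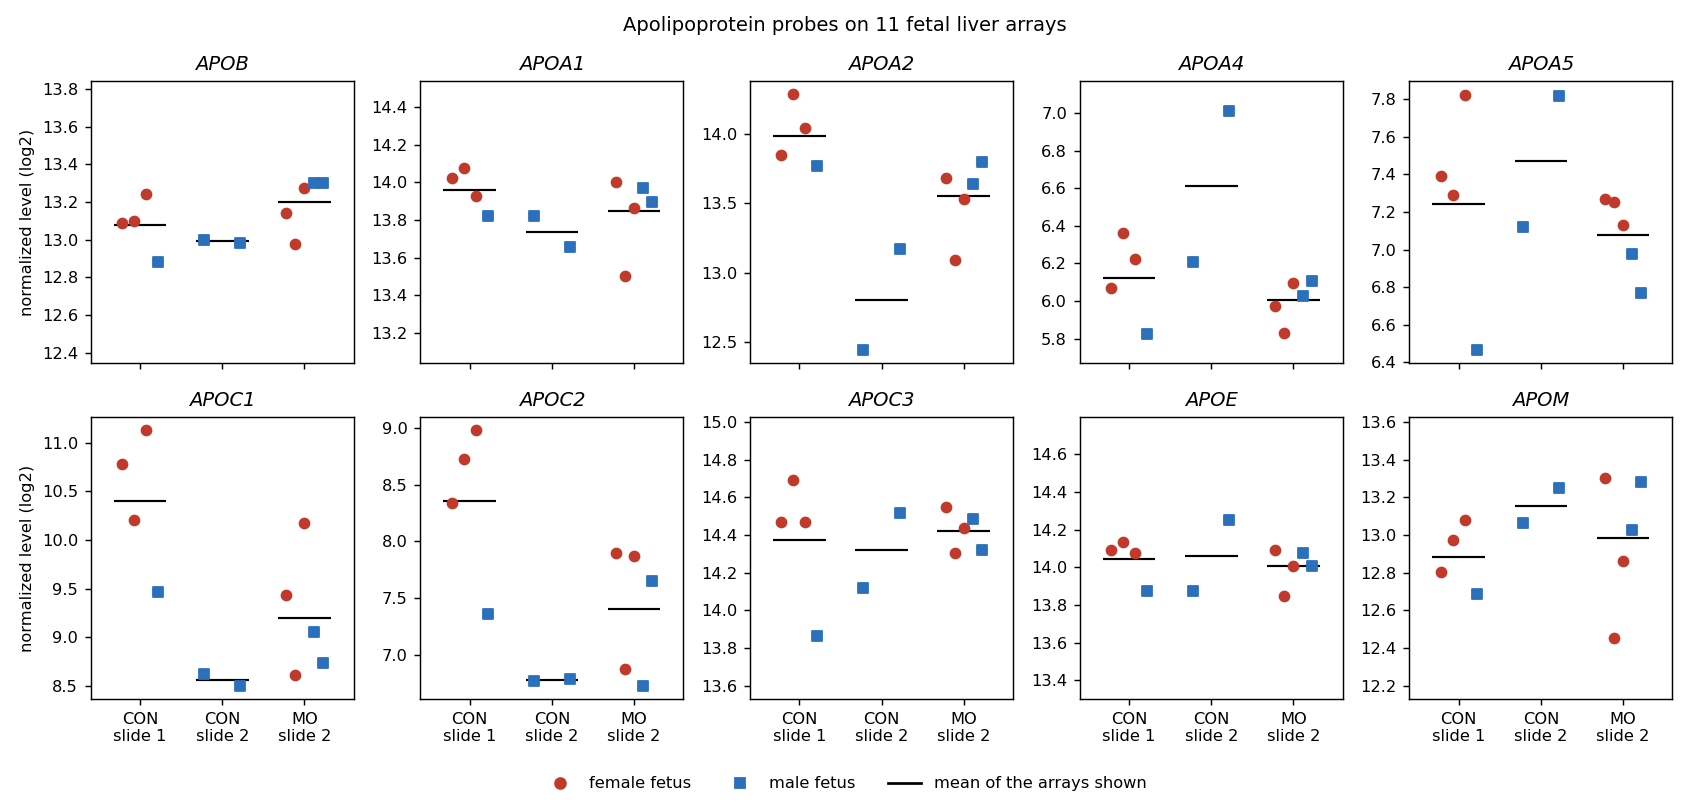
Normalized log2 level (vertical axis) of each of the 10 apolipoprotein probes on 11 arrays, with control arrays split by slide. Circles are female and squares male fetuses, and black lines are means of the arrays shown; each panel has its own vertical range. APOA2, APOC1 and APOC2 are lower in both slide 2 controls than in all 4 slide 1 controls.

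The 10 genes differed in how far they varied. The SD over all 11 arrays was 0.12 for APOE, 0.15 for APOB, 0.17 for APOA1, 0.23 for APOC3 and 0.26 for APOM, below the median SD of 0.28 over all probes that passed detection. It was 0.33 for APOA4, 0.40 for APOA5, 0.51 for APOA2, 0.81 for APOC2 and 0.93 for APOC1. Among all such probes APOE stood at percentile 1.66 of SD and APOC1 at percentile 98.3. Quantile normalization gives the same value to equal ranks (APOB had the same level, 13.30, in MO4 and MO5).

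**Figure D2:**
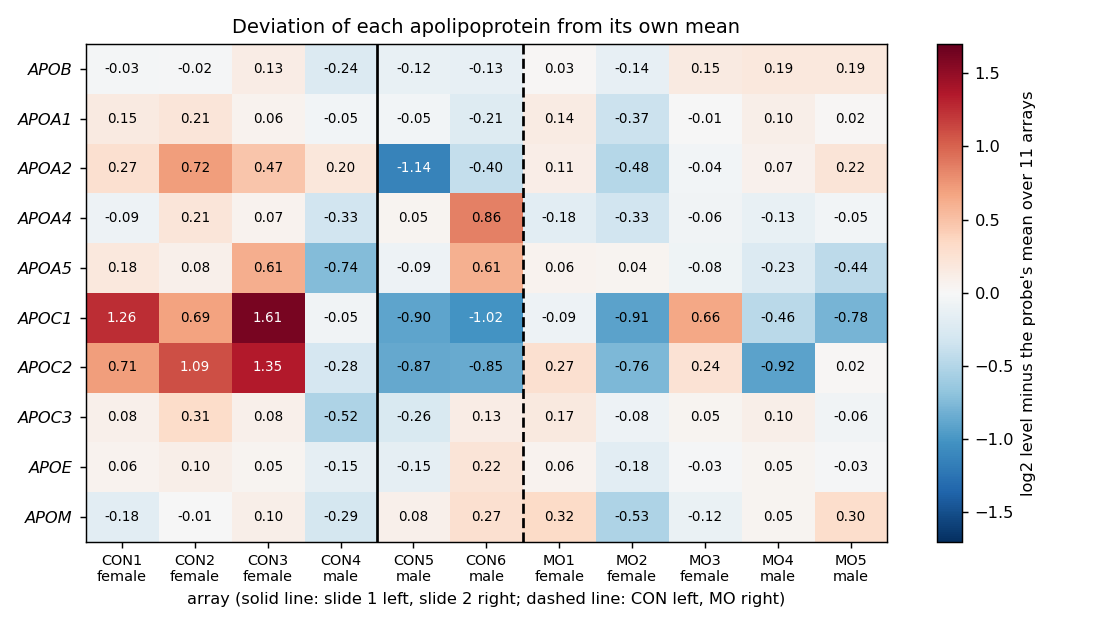
Log2 level of each apolipoprotein minus that probe's mean over the 11 arrays, one column per array. APOC1 ranges from -1.02 (CON6) to 1.61 (CON3) and APOC2 from -0.92 (MO4) to 1.35 (CON3), while APOE stays between -0.18 and 0.22.

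The study's question was whether the fetal liver differs between pregnancies of obese and control mothers. No apolipoprotein passed the test. Of the 10 genes, 3 had a higher mean in maternal obese livers (APOB, APOC3 and APOM) and 7 a lower one, but scaling arrays to their medians instead of quantiles put those 3 at -0.02, -0.09 and -0.16, where the median of all probes moved from 0.04 to -0.13. The median difference of the 10 genes was -0.05, and 42.9% of all probes lay below 0. By limma 0 of 11475 probes passed an adjusted p of 0.05 (0% of those tested). At an unadjusted p under 0.05 there were 1464 probes, or 12.8%, and 0 of the 10 apolipoproteins. The ranges of the 2 groups overlapped for every apolipoprotein, while 1.41% of all probes had groups that did not overlap.

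None of the structural proteins passed. APOB differed by 0.15 (SE 0.11, 95% interval -0.09 to 0.39, adjusted p = 0.530), APOA1 by -0.04 (SE 0.12, -0.31 to 0.23, adjusted p = 0.897) and APOA2 by -0.05 (SE 0.28, -0.66 to 0.57, adjusted p = 0.952). The interval of APOA1 thus reaches from 0.807-fold to 1.17-fold, and that of APOA2 from 0.633-fold to 1.48-fold. APOE at -0.05 (SE 0.11, -0.28 to 0.19), APOC3 at 0.06 (SE 0.15, -0.25 to 0.38) and APOM at 0.01 (SE 0.16, -0.35 to 0.37) did not pass either.

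The regulators APOC1, APOC2, APOA4 and APOA5 had lower means in maternal obese livers, and none passed. The control level of APOC1 was 9.78 ± 1.10 (SD, n = 6) and the maternal obese level 9.20 ± 0.63 (SD, n = 5), a difference of -0.58 (SE 0.47, -1.60 to 0.44, adjusted p = 0.578). APOC2 stood at 7.83 ± 0.98 and 7.40 ± 0.57, a difference of -0.42 (SE 0.42, -1.34 to 0.49, adjusted p = 0.656). APOA4 differed by -0.28 (SE 0.18, -0.66 to 0.11, adjusted p = 0.485) and APOA5 by -0.24 (SE 0.22, -0.71 to 0.24, adjusted p = 0.625). For APOC1 the interval runs from 0.329-fold to 1.36-fold, a wide range that includes no difference.

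Slide as a covariate turned the sign of 5 genes. That fit compares the 5 maternal obese arrays with the pair of controls on their slide. Both of those controls are male and 3 of the 5 maternal obese fetuses female, so the fit partly holds sex. APOA2 went to 0.74 (SE 0.23), APOC1 to 0.64 (SE 0.45), APOC2 to 0.63 (SE 0.42), APOA1 to 0.11 and APOM to -0.17. APOA4 went to -0.60 (SE 0.21) and APOA5 to -0.39 (SE 0.31), while APOB, APOC3 and APOE stayed at 0.21, 0.10 and -0.06. With slide, APOA2 had an unadjusted p of 0.00813 and APOA4 of 0.0135, but 893 probes (7.78%) lay under 0.05 there, and neither passed after adjustment (adjusted p = 0.558 and 0.568). With slide and sex as covariates APOA2 stood at 0.78, APOA4 at -0.66 and APOA5 at -0.76 (adjusted p = 0.983 each), and APOC1 and APOC2 at 0.17 and 0.19.

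**Figure D3:**
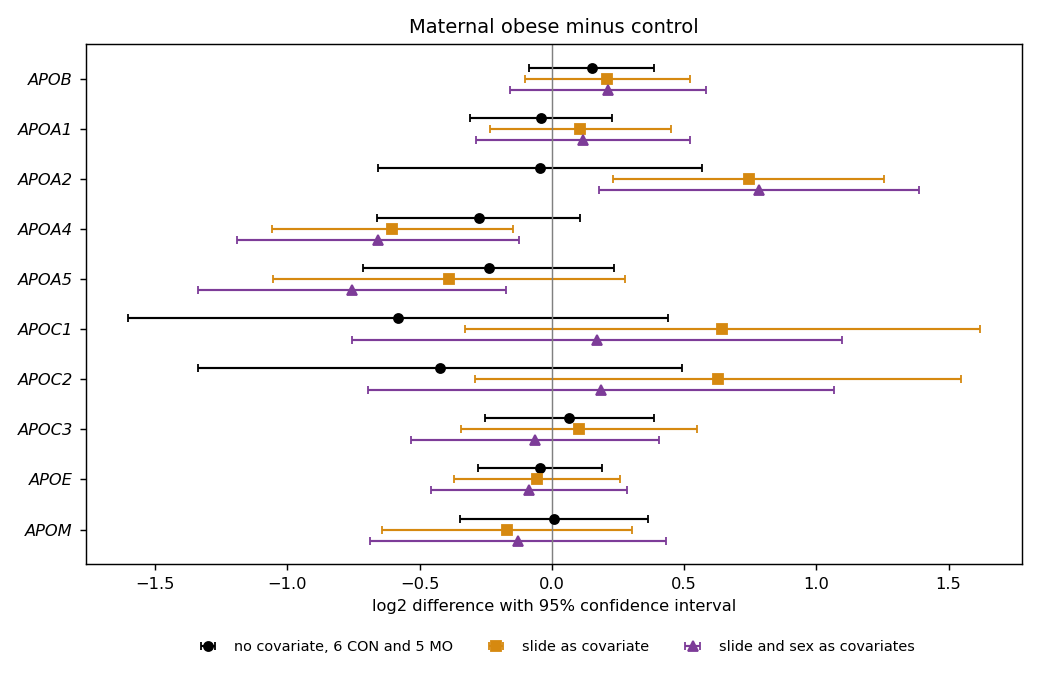
Maternal obese minus control difference (log2, horizontal axis) of each apolipoprotein with its 95% confidence interval, without a covariate (circles), with slide (squares) and with slide and sex (triangles). Without a covariate all 10 intervals include 0, and APOA1, APOA2, APOC1, APOC2 and APOM lie on opposite sides of 0 with and without slide.

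The arrays were next compared by slide, with condition as a covariate. Because slide 1 held only controls, this sets CON5 and CON6 against CON1 to CON4. APOA2, APOC1 and APOC2 were lower on slide 2 and passed the test, and the other 7 genes did not. APOC1 fell from 10.40 ± 0.73 (SD, n = 4) to 8.56 ± 0.09 (SD, n = 2), by 1.84 (SE 0.46, 95% interval -2.85 to -0.83, adjusted p = 0.0307), which is 3.57-fold. APOC2 fell from 8.35 ± 0.72 to 6.78 ± 0.01, by 1.58 (SE 0.44, -2.53 to -0.62, adjusted p = 0.0445), and APOA2 from 13.99 ± 0.23 to 12.81 ± 0.52, by 1.18 (SE 0.24, -1.71 to -0.65, adjusted p = 0.0129).

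Among all probes 1027 passed this test (8.95%), 334 higher and 693 lower on slide 2, so 6.04% of all probes were called lower against 3 of the 10 apolipoproteins. The deposited values without normalization split otherwise, into 3654 higher and 265 lower. The 4 and 2 control arrays did not overlap for these 3 apolipoproteins, nor for 35.9% of all probes. The 2 slide 2 controls are male and 3 of the 4 slide 1 controls female, so the slide comparison partly holds sex. With sex added, APOA2 stayed at -1.23 (adjusted p = 0.0649), and APOC1 and APOC2 went to -1.25 and -1.02 (adjusted p = 0.176 and 0.228), none past the threshold.

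Single arrays also ended these calls. APOA2 was lost without CON5 (-0.82, adjusted p = 0.126). APOC1 was lost without CON1 (-1.71, 0.0602), CON3 (-1.59, 0.0708), CON5 (-1.90, 0.117) or CON6 (-1.78, 0.214). APOC2 was lost without CON1 (-1.58, 0.0706), CON2 (-1.45, 0.0754), CON3 (-1.36, 0.101), CON5 (-1.57, 0.155), CON6 (-1.58, 0.238), MO1 (0.0524), MO3 (0.0529) or MO5 (0.0604). The direction of all 3 differences was the same on leaving out any 1 array. The count over all probes went from 1027 to 566 without CON3, 261 without CON5 and 87 without CON6.

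The other 7 genes did not pass, though APOA4 did in the deposited values without normalization (0.65, adjusted p = 0.0118). Counting APOA4, 4 of the 10 genes had an unadjusted p under 0.05, as did 26.9% of all probes. APOA4 stood at 0.49 on slide 2 (SE 0.22, adjusted p = 0.170), which rested on CON6 at 7.01, since without CON6 it was 0.09. APOM stood at 0.27 (SE 0.22), APOA5 at 0.23 (SE 0.32), APOE at 0.02 (SE 0.15), APOC3 at -0.06 (SE 0.21), APOB at -0.09 (SE 0.15) and APOA1 at -0.22 (SE 0.16).

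Cell type markers on the same arrays were set beside this. The summed level of the 7 hepatocyte markers was 89626 to 102126 in the slide 1 controls, 83158 to 88542 in the slide 2 controls and 87340 to 92973 in maternal obese livers. By the brightest probe of each gene, 6 of these 7 markers had a lower mean on slide 2, the direction of APOA2, APOC1 and APOC2. The median difference was -0.29 against 0.10 over all probes. TTR stood at 0.13 and FGA at -0.04, and dimmer detected probes of ALB and FGA stood at 0.01 and 0.04. AFP stood at -0.84 and AHSG at -0.83 (adjusted p = 0.256 and 0.0710). The fibrinogen chain FGB was lower on slide 2 at -1.39 (adjusted p = 0.00448), and ALB, TTR, FGA, AFP, AHSG and the brightest SERPINA1 probe did not pass, while a dimmer SERPINA1 probe did (-1.41, adjusted p = 0.00575). The summed level of 9 macrophage markers, cells that also make APOE and APOC1, was 8926 to 13045, 10063 to 16270 and 8702 to 12688 in the same 3 sets, so these overlapped. CD68 was lower on slide 2 by its brightest probe (-1.19, adjusted p = 0.0430), but its other probes stood at -0.57 and 0.21 and did not pass, so the probes disagree. The part of either cell type in the apolipoprotein values was not tested.

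**Figure D4:**
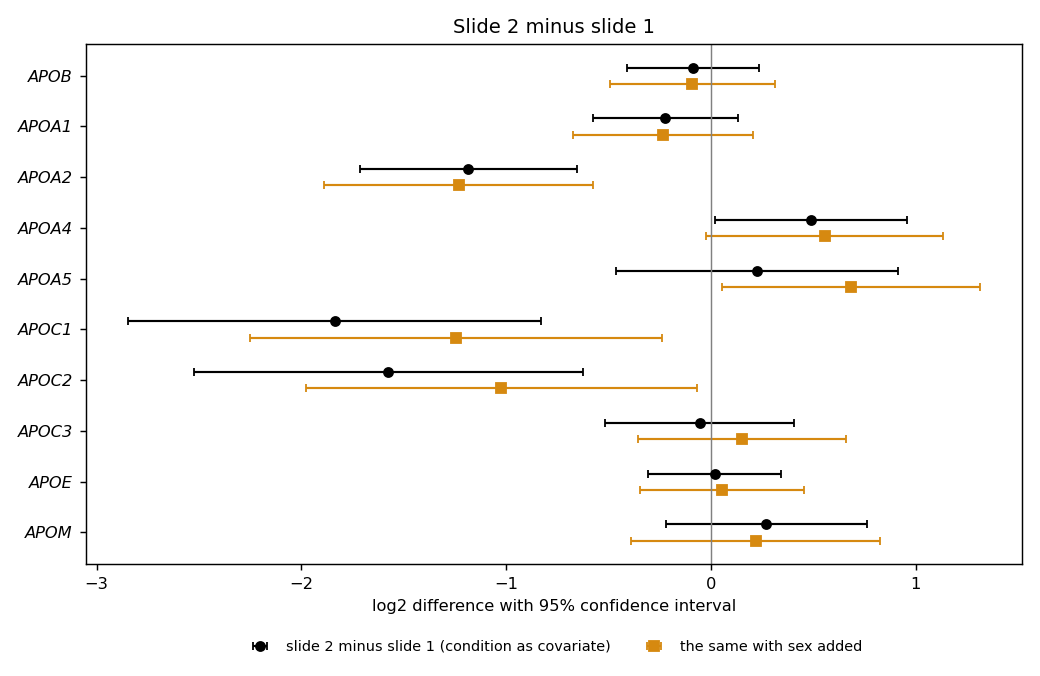
Slide 2 minus slide 1 difference (log2, horizontal axis) of each apolipoprotein with its 95% confidence interval, with condition as covariate (circles) and with sex added (squares). APOA2, APOC1 and APOC2 lie below 0 in both fits and pass the adjusted threshold only in the first.

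Fetal sex was compared with condition as a covariate. No apolipoprotein passed, and 5 of all probes did (0.0436%). APOC1 was the gene with the largest difference, 10.06 ± 0.92 (SD, n = 6) in females and 8.88 ± 0.39 (SD, n = 5) in males, or 1.25 (SE 0.34, 95% interval 0.52 to 1.98, adjusted p = 0.323). APOC2 stood at 8.12 ± 0.75 and 7.06 ± 0.42, or 1.11 (SE 0.30, 0.45 to 1.78, adjusted p = 0.323). These were the 2 of 10 apolipoproteins with an unadjusted p under 0.05 (0.00294 and 0.00318), where 11.1% of all probes had one. The 2 sexes overlapped for both genes, as for all but 0.723% of probes, with the females MO1 and MO2 below the male CON4 for APOC1 and MO2 below CON4 and MO5 for APOC2. By the brightest probe of each gene all 9 macrophage markers had a higher mean in females, with a median of 0.15 against -0.04 over all probes. None passed, with CD68 at the smallest limma adjusted p (0.350). CD14 stood at 0.0077, and a dimmer CD68 probe at -0.02. The summed levels were 9378 to 13045 in females and 8702 to 16270 in males, and the part of these markers in the APOC1 difference was not tested. With slide added the differences were 0.79 (SE 0.32) for APOC1 and 0.74 (SE 0.30) for APOC2, and APOA5 went from 0.36 (SE 0.20) to 0.61 (SE 0.20), none past the threshold (adjusted p = 0.922, 0.947 and 0.900).

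Within females all 10 apolipoproteins had lower means in the maternal obese group, where 40.4% of all probes lay below 0, though the deposited values without normalization put APOB, APOA4 and APOE above 0, at 0.053, 0.090 and 0.0071. APOC1 stood at 10.71 ± 0.47 in 3 control and 9.41 ± 0.78 in 3 maternal obese females, a difference of -1.30 (SE 0.39, limma adjusted p = 0.195). APOC2 stood at 8.69 ± 0.32 and 7.55 ± 0.59, a difference of -1.14 (SE 0.33, limma adjusted p = 0.188), and APOA2 at -0.63 (SE 0.29, limma adjusted p = 0.388). All control females were on slide 1 and all maternal obese females on slide 2, so slide and maternal obesity cannot be told apart in females alone. A slide term taken from the males rests on CON4, the only slide 1 male and the lowest slide 1 control for every member. That term moved APOC1 to -0.39, APOC2 to -0.56 and APOA2 to 0.34, and APOA4 and APOA5 to -1.04 and -1.29. In females 0 probes passed by limma (0%), though 364 did without CON4, whose absence changes only the shared estimate of spread, and 1542 (13.4%) had an unadjusted p under 0.05, APOC1 and APOC2 among them.

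In males 8 of 10 means were higher with maternal obesity, where 56% of all probes lay above 0, but with median scaling APOA1, APOC1, APOC2, APOE and APOM lay below 0 (-0.04, -0.32, -0.17, -0.15 and -0.07) as the median of all probes went from 0.05 to -0.25. APOB stood at 12.96 ± 0.06 in 3 control and 13.30 in both maternal obese males, a difference of 0.35 (SE 0.16, limma adjusted p = 0.561), and APOA2 at 0.59 (SE 0.33, limma adjusted p = 0.612). APOB was the single member with an unadjusted p under 0.05 (0.0472), as were 8.89% of all probes, of which 0 (0%) passed after adjustment. With a slide term APOB stood at 0.31, APOA2 at 0.92 and APOA5 at -0.60.

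The difference between the sexes was tested as an interaction, and no apolipoprotein passed (0% of all probes did). APOA2 stood at -1.22 (SE 0.44, adjusted p = 0.608), APOC2 at -1.35 (SE 0.49, adjusted p = 0.618) and APOC1 at -1.34 (SE 0.58, adjusted p = 0.664), and the other 7 between -0.39 and 0.03. Those 3 had an unadjusted p under 0.05, as did 7.36% of all probes (844). With a slide term they stood at -0.58, -0.97 and -0.73.

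**Figure D5:**
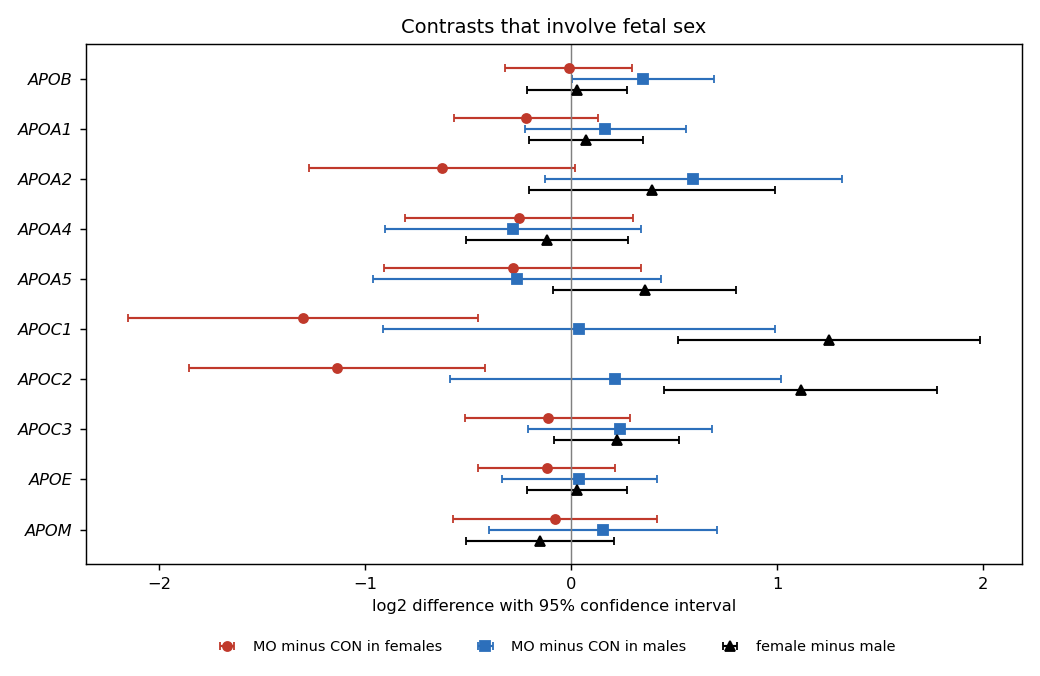
Log2 differences with 95% confidence intervals of each apolipoprotein for maternal obese minus control in females (red circles) and in males (blue squares), and for female minus male with condition as covariate (black triangles). APOC1 and APOC2 have the largest shifts, near -1.30 and -1.14 in females and 1.25 and 1.11 between the sexes, and none passed after adjustment over all probes.

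How the members varied together was described after the mean of each slide was subtracted, over 11 arrays that share 2 slides. APOC3 and APOE had the highest Pearson r of any pair, 0.79, followed by APOC1 and APOC2 at 0.77, APOA4 and APOE at 0.75 and APOB and APOA2 at 0.72. The 3 genes most like each member were never other members. APOC2 was most like the receptor tyrosine kinase AXL (r = 0.98), FBXO38 (0.98) and DDOST (0.97), and APOC1 most like SUMO2 (0.93), PABPC1 (0.93) and ZKSCAN1 (0.92). APOA5 was most like the bile acid and fatty acyl-CoA synthetase SLC27A5 (0.98), APOE like ABCA4 (0.94), CIDEB, a lipid droplet protein of very low density lipoprotein maturation (0.92), and BST2 (0.91), and APOC3 like the interferon-induced MX1 (0.95). APOA1 was most like PPARG (0.94), APOA2 like AMMECR1 (0.93) and the lysosomal cholesterol exporter NPC1 (0.91), APOB like the endoplasmic reticulum co-chaperone DNAJC3 (0.92), APOA4 like PARP9 (0.91) and APOM like METTL13 (0.92). With this few arrays and 9344 other named probes, values of this size are reached by the most similar of many, and they are given as a description.

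Genes that act with the apolipoproteins were grouped by role. In the comparison of maternal obese with control livers 0 of their probes passed in either direction, as for the whole table. Of 13 other apolipoproteins 8 were detected by 10 probes, with a median difference of -0.19. The mitochondrial APOO stood at -0.41 (SE 0.18, unadjusted p = 0.0422). LPA, the apolipoprotein(a) gene whose repeats resemble plasminogen, had 3 probes at 0.36, 0.28 and 0.09. The first of them (unadjusted p = 0.0202) passed detection on 1 array of 6 from controls and on all 5 of the maternal obese group. It met the 5-array filter through the group where it was higher, so its p-value lends no support to a difference. With slide as a covariate the 3 LPA probes stood at 0.13, 0.11 and -0.18, and APOO at -0.34. APOH, a phospholipid-binding plasma protein also called beta-2-glycoprotein I, was lower on slide 2 at -1.56 (SE 0.43, adjusted p = 0.0450), the same direction as APOC1, APOC2 and APOA2. The slide comparison partly holds sex, and between the sexes APOH stood 1.11 higher in females (SE 0.30, limma adjusted p = 0.323).

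Lipoprotein assembly and secretion was represented by 10 probes of 7 genes, with a median of 0.0022. SAR1B is the GTPase of the vesicles that carry large lipoproteins out of the endoplasmic reticulum. It stood at -0.58 (SE 0.24, unadjusted p = 0.0335) by its dimmer probe and at -0.03 by its brighter probe. The dimmer probe passed detection on 4 arrays from controls and 1 of the maternal obese group. It met the filter mainly through the controls, where it was higher, so its p-value lends no support to a difference. With slide as a covariate the dimmer probe stood at 0.07. PLA2G12B, needed for very low density lipoprotein secretion in mice, stood at -0.18 (SE 0.18), and at 0.07 with slide. By slide, SAR1A (-0.84, adjusted p = 0.0235) and the dimmer SAR1B probe (-0.98, adjusted p = 0.0203) were lower on slide 2, and the cargo receptor SURF4 was higher (0.51, adjusted p = 0.0361). These differences partly hold sex. Between the sexes SAR1A stood 0.54 higher in females (SE 0.16) and SURF4 at -0.16 (SE 0.14), neither past the threshold. The dimmer SAR1B probe passed detection on only 5 of 11 arrays, 4 of them controls, so its call rests on values close to background. Slide 1, where it was higher, held only controls. The filter may therefore favour this contrast too, and its p-value lends no support to a slide difference.

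Lipases and plasma remodelling factors were detected by 6 probes of 5 genes, with a median of -0.15. The phospholipid transfer protein PLTP stood at 0.42 (SE 0.17, unadjusted p = 0.0245), and at 0.56 with slide as a covariate. The lipase maturation factor LMF1 stood at -0.41 (SE 0.19), and at -0.31 with slide. Receptors and efflux transporters had 5 probes of 4 genes and a median of 0.02. The scavenging receptor LRP1 stood at 0.14 (SE 0.12) and the sterol transporter ABCG1 at -0.16 (SE 0.16). With slide as a covariate LRP1 went to 0.28 and ABCG1 to 0.11. Of transcription factors that act on apolipoprotein genes, 14 probes of 12 genes were detected, and 13 of the 14 lay above 0, where 57.1% of all probes did. Their median was 0.22, with the insulin-regulated FOXO1 at 0.35 (SE 0.19) and the hepatic factor ONECUT1 at 0.59 (SE 0.36) by one probe and 0.23 (SE 0.22) by the other. With slide as a covariate 10 of the 14 lay above 0, against 49.8% of all probes, with a median of 0.29.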

How the data were processed

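Liver RNA of each fetus went on 1 human Illumina BeadChip array. For each of 48803 probes and 11 arrays the authors deposited, per the file headers, an unnormalized intensity (linear) and a detection p-value. The deposited series matrix holds log2 values, which differed from the log2 of those intensities by at most 5e-09, so they were neither corrected nor normalized. GenomeStudio and Partek are named in the submitters' processing notes, without role or version.

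Normalization used limma 3.58.1 under R 4.3.3. Its neqc function fitted negative controls from the detection p-values, corrected background by normexp with offset 16 and equalised quantiles. The 11475 probes with detection p under 0.05 on 5 or more arrays entered lmFit and eBayes, with two-sided tests and Benjamini-Hochberg adjustment at 0.05. The platform annotation gave 1 symbol to 28098 probes, several to 13 and none was listed for 20692. Contrasts by sex came from a fit of 4 group means. The procedure was tested on simulated data. Replicate numbers follow accession order. The p-values weigh each difference only against the spread between these arrays, which limma moderates over all tested probes.

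Members, gene lists and tests were chosen with earlier results of these data known. All 10 members are named. From each gene list the 2 probes with the smallest unadjusted p for maternal obesity are named, and any past the adjusted threshold. For likeness, the 3 genes with the highest correlation to a member were taken. Alternatives were median scaling, the deposited log2 values, no filter, detection on all arrays, 1 probe per gene, slide and sex terms, and leaving out each array. Probe and baboon sequences were not used here, so mismatches between them were not examined.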

Additional observations from a re-analysis of the deposited data

Results flagged for a closer look

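APOA1 in MO2 stood at 13.50, with the nearest other maternal obese array at 13.86 and the highest at 14.00. The gap was 0.719 of the range of the 5 maternal obese arrays, above Dixon's 95% critical value for a group of that size. Of 30 sets of values examined this way 1 was set apart, and a 95% limit lets some pass by chance. The sets overlap, since the slide 1 controls are also among the controls, so they are not 30 separate trials. MO2 was the lowest maternal obese array for most other members too.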

How the results depend on the processing

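The slide 2 calls of APOC1 and APOC2 were lost without the detection filter (adjusted p = 0.101 and 0.131), where more probes were tested, and those of APOA2, APOC1 and APOC2 with sex as a covariate. The cause of these and of the other losses and sign changes was not tested. No paired analysis was possible because the labels give no replicate numbers that pair arrays. The number of arrays and, for APOA4, APOA5 and APOC2, signal close to background limit the precision.

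Counts of probes past the adjusted threshold went as follows. For maternal obese against control, 0 became 1 with deposited log2 values, with slide and with sex, and 0 to 2 on leaving out 1 array. For slide 2 against slide 1, 1027 became 3919 with deposited log2 values, 684 with detection on all arrays and 171 with sex, and 87 to 1088 on leaving out 1 array. In females 0 became 1 with no filter and with detection on all arrays, and 0 to 364 on leaving out 1 array. In males 0 became 1 with deposited values, and 0 to 4 on leaving out 1 array. For the interaction 0 became 1 with deposited values, and 0 to 19 on leaving out 1 array (19 without CON4). For female against male 5 became 2 with median scaling, 3 with deposited values, 1 with no filter and 0 with detection on all arrays, and 3 to 5 on leaving out 1 array.

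Counts at an unadjusted p under 0.05 were, for maternal obese against control, 645 with deposited values, 3789 with no filter, 893 with slide, 563 with slide as a random block, 955 on slide 2 alone, 565 with slide and sex, and 914 (without CON3) to 2378 (without CON6) on leaving out 1 array. For slide they were 5251 with deposited values, 7267 with no filter and 1714 to 3137 on leaving out 1 array. In females they were 2366 with deposited values, 4325 with no filter, 1024 with detection on all arrays, 751 with slide and 1002 to 2156 on leaving out 1 array. In males they were 2858 with no filter and 377 (without MO4) to 1341. For the interaction they were 2043 with deposited values, 2670 with no filter and 542 to 1462. For female against male they were 784 with median scaling, 836 with deposited values, 3767 with no filter, 576 with slide and 780 to 2141 on leaving out 1 array.

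Signs turned as follows, none with a call. For maternal obese against control, median scaling gave APOB -0.019, APOC3 -0.090 and APOM -0.16. Deposited values gave APOM -0.049. Slide or slide 2 alone gave APOA1 0.11, APOA2 0.74, APOC1 0.64, APOC2 0.63 and APOM -0.17. A random slide block gave APOA1 0.030, APOA2 0.33, APOC1 0.0017, APOC2 0.076 and APOM -0.076. Slide and sex gave APOA1 0.12, APOA2 0.78, APOC1 0.17, APOC2 0.19, APOC3 -0.065 and APOM -0.13. Without 1 array the range was APOA1 -0.087 to 0.046, APOA2 -0.28 to 0.094, APOC3 -0.034 to 0.13 and APOM -0.070 to 0.14. For slide, median scaling gave APOE -0.13. Deposited values gave APOB 0.047, APOA1 0.021 and APOC3 0.11. Sex gave APOC3 0.15. Leaving out 1 array gave APOA5 -0.12 to 0.57, APOC3 -0.25 to 0.14 and APOE -0.17 to 0.21. In females, deposited values gave APOB 0.053, APOA4 0.090 and APOE 0.0071. Slide gave APOA2 0.34. Without 1 array the range was APOB -0.083 to 0.064 and APOM -0.29 to 0.13. In males, median scaling gave APOA1 -0.038, APOC1 -0.32, APOC2 -0.17, APOE -0.15 and APOM -0.069. Deposited values gave APOA1 -0.035, APOC1 -0.29, APOC2 -0.10, APOE -0.14 and APOM -0.066. Slide gave APOE -0.022 and APOM -0.0025. Leaving out 1 array gave APOA4 -0.54 to 0.050, APOA5 -0.60 to 0.077, APOC1 -0.14 to 0.34, APOC2 -0.25 to 0.68, APOE -0.022 to 0.17 and APOM -0.0025 to 0.28. For the interaction, median scaling gave APOA5 0.26. Deposited values gave APOA5 0.37, APOE 0.15 and APOM 0.055. Slide gave APOA4 -0.49. Without 1 array the range was APOA4 -0.30 to 0.29 and APOA5 -0.36 to 0.31. For female against male, slide gave APOB -0.0049, APOA1 -0.016, APOA2 -0.064 and APOA4 0.090. Leaving out 1 array gave APOB -0.016 to 0.076, APOA4 -0.25 to 0.051 and APOE -0.010 to 0.084. Where leaving out MO4 or MO5 left 1 maternal obese male, that array was assumed to vary like the other groups.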
